A study of Mus musculus with 12 samples.

Results

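Autophagy encloses cytoplasm in a double membrane and delivers it to lysosomes. Here the transcripts of 44 mouse genes for its machinery and receptors were followed, out of 32688 genes listed in the count table. The members were listed by gene symbol, with earlier results of these data known, from the kinase complexes that start the process to the factors that fuse autophagosomes with lysosomes, and all 44 symbols were found. RNA-seq had been performed in RAW264.7 cells, a mouse macrophage line, as 12 libraries in 4 groups of 3. Null cells, which keep TFEB and TFE3, and a double knockout (DKO) line made with CRISPR against both genes were each sequenced without drug and after 100 µM etoposide, a topoisomerase II poison that breaks DNA, for 8 h.

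Both genotypes share the RAW264.7 background and the same culture medium. Each genotype was represented by 1 line, so the difference between genotypes cannot be told apart from a difference between 2 lines. The labels call the controls untreated, whereas the methods of the study name DMSO. RNA came from 1 of 2 kits, and the labels do not say which kit served which library. The titles of the DKO etoposide libraries hold the word MEFs (mouse embryonic fibroblasts), although every other label of theirs gives RAW264.7. In these as in all other libraries, 8 of 8 macrophage markers were above 1 CPM (counts per 1e6 counts of the scaled library size), and their summed level was 4584 to 4775 CPM in DKO etoposide libraries against 4192 to 5133 CPM in the control libraries. Single markers moved within this sum. The mean of the Fc receptor gene Fcgr1 was 69.5 CPM in Null control, 37.0 in Null etoposide, 29.1 in DKO control and 5.13 in DKO etoposide libraries. Other markers differed between the genotypes in both directions. In DKO cells the transcription factor gene Spi1 was 1.47-fold higher in control cells and 2.01-fold higher after etoposide, and Ptprc, the gene of CD45, was 1.23-fold and 1.34-fold higher. The mean of Lyz2 was lower in DKO than in Null cells, at 1116 against 1684 CPM in control and 1641 against 1933 CPM in treated libraries. Itgam was lower too, at 143 against 224 CPM and 343 against 449 CPM. Csf1r was at 1293 against 1751 CPM in control and 850 against 765 CPM in treated libraries. With etoposide the receptor gene Csf1r fell by 1.19 on the log2 scale in Null and by 0.60 in DKO cells, and the integrin gene Itgam rose by 1.01 and 1.26. The overlapping gene Gm49368 of the same strand could supply up to 63% of the Itgam counts. The part of these changes in the results below was not tested. Of 8 fibroblast markers, 7 were below 1 CPM everywhere, and the list summed to at most 2.04 CPM in any library (Null etoposide) and to 1.01 to 1.2 CPM in DKO etoposide libraries. The collagen gene Col1a1, 1 of these 8 markers, did not exceed 0.135 CPM, and the highest value of any of them was 1.38 CPM (Pdgfrb).

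TFEB and TFE3 are related transcription factors of the lysosomal and autophagy programme. They bind short DNA elements around the letters CACGTG. They enter the nucleus when the kinase mTORC1 is inhibited and under several other stresses. In a macrophage, autophagy clears damaged organelles and microbes and works beside the degradation of phagocytosed material.

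Autophagosome formation proceeds in steps. The ULK1 kinase complex starts it, a class III PI 3-kinase complex marks the site with the lipid PI3P, and vesicles and lipid transfer proteins supply membrane. Conjugation enzymes then attach ubiquitin-like ATG8 proteins to the membrane, where cargo receptors bind them, and SNARE and tethering factors fuse the closed vesicle with the lysosome.

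Total counts per library lay between 29837255 and 61809316. The targeted genes were lower in DKO cells but not absent. In control libraries the mean of Tfeb was 16.8 ± 0.286 CPM for Null and 4.40 ± 1.12 CPM for DKO, and that of Tfe3 was 104 ± 14.8 and 37.8 ± 5.71 CPM (SD, n = 3). After etoposide Tfeb was 7.56 ± 0.427 CPM in Null and 4.34 ± 0.0894 CPM in DKO libraries, so that the Null level was 3.87-fold that of DKO in control cells and 1.73-fold after etoposide (interaction 1.16 on the log2 scale, limma-trend adjusted p = 0.00499). Tfe3 was 101 ± 2.02 and 37.7 ± 3.20 CPM after etoposide. Control libraries spread more than treated ones. DKO control replicate 1 stood apart from replicates 2 and 3 of its group, at 57.1 and 70.0 times the squared difference that counting alone gives, against 7.43 times between the other two. Null control replicate 1 differed from replicate 3 by 47.1 times that amount. For the members the median SD of log2 CPM was 0.14 in both control groups and, after etoposide, 0.05 in Null and 0.11 in DKO libraries.

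The level of the members was first compared per length of their exons. Sqstm1, which encodes the cargo receptor p62, ranked first at 121 CPM per kb over all libraries, followed by Gabarap at 70.8 and Rab7 at 52.0 CPM per kb. At the low end were Tecpr1 (1.05 CPM per kb) and Wipi1 (0.278 CPM per kb). Optn, the gene of the receptor optineurin, had no count in any control library and at most 0.145 CPM after etoposide. It did not pass the filter on low counts, so 43 members were tested among 18066 genes. Summed over all 44 members, the level in Null cells was 2115 ± 42.8 CPM before and 2454 ± 25.1 CPM after etoposide, and in DKO cells 2439 ± 61.0 and 2645 ± 40.0 CPM (SD, n = 3). Of these sums, Sqstm1 alone held means of 301 and 335 CPM in Null cells and 554 and 433 CPM in DKO cells. The higher sum of DKO than of Null control cells thus lay largely in that gene.

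The first question was how the autophagy genes of cells with both factors responded to etoposide. In Null cells 19 of the 43 members rose, 7 fell and 17 did not pass the test (limma-trend on log2 CPM, adjusted p under 0.05). The rises took 44.2% of the members, and over all genes tested 20.9% were called higher. The falls took 16.3%, against 18.7% called lower over all genes. The median log2 difference was 0.31 for the members and 0.03 for all genes. Asking also for an absolute log2 difference of at least 1 left 6.98% of the members higher, against 8.29% of all genes, so the larger share of rises lay in differences smaller than that. In bulk RNA a lower level in every cell and fewer cells with the transcript cannot be told apart. The labels do not say that replicates came from separate cultures, and the study calls its samples independent without naming cultures, so p-values measure the spread between these libraries.

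By role, all 5 genes of the ULK1 complex rose, as did 3 of 5 PI 3-kinase genes, 5 of 7 genes for membrane supply, lipid transfer and PI3P reading, and 3 of 5 ATG8 genes. Of the 10 conjugation and processing enzymes 2 rose and 4 fell, and of the 4 tested cargo receptors 1 rose. Among the fusion factors none rose and 1 of 5 fell. The roles were not tested against each other. Without Null control replicate 1 the counts were 17 higher and 6 lower, and the median was 0.21. These were 39.5% and 14.0% of the members, against 19.8% and 18.6% of all genes.

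The same question was put to cells without the 2 factors. In DKO cells 16 members rose, 5 fell and 22 did not pass the test, against 20.2% of all genes called higher and 19.1% called lower. The median log2 difference was 0.19, beside 0.03 for all genes. By role, 3 of 5 ULK1 complex genes, 3 of 5 PI 3-kinase genes, 4 of 7 membrane supply genes and 3 of 5 ATG8 genes rose. Of the conjugation enzymes 1 rose and 1 fell. Without DKO control replicate 1 there were 18 higher and 6 lower, and the median was 0.10. These were 41.9% and 14.0% of the members, and the calls over all genes went up as well, to 22.0% and 21.3%.

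**Figure D1:**
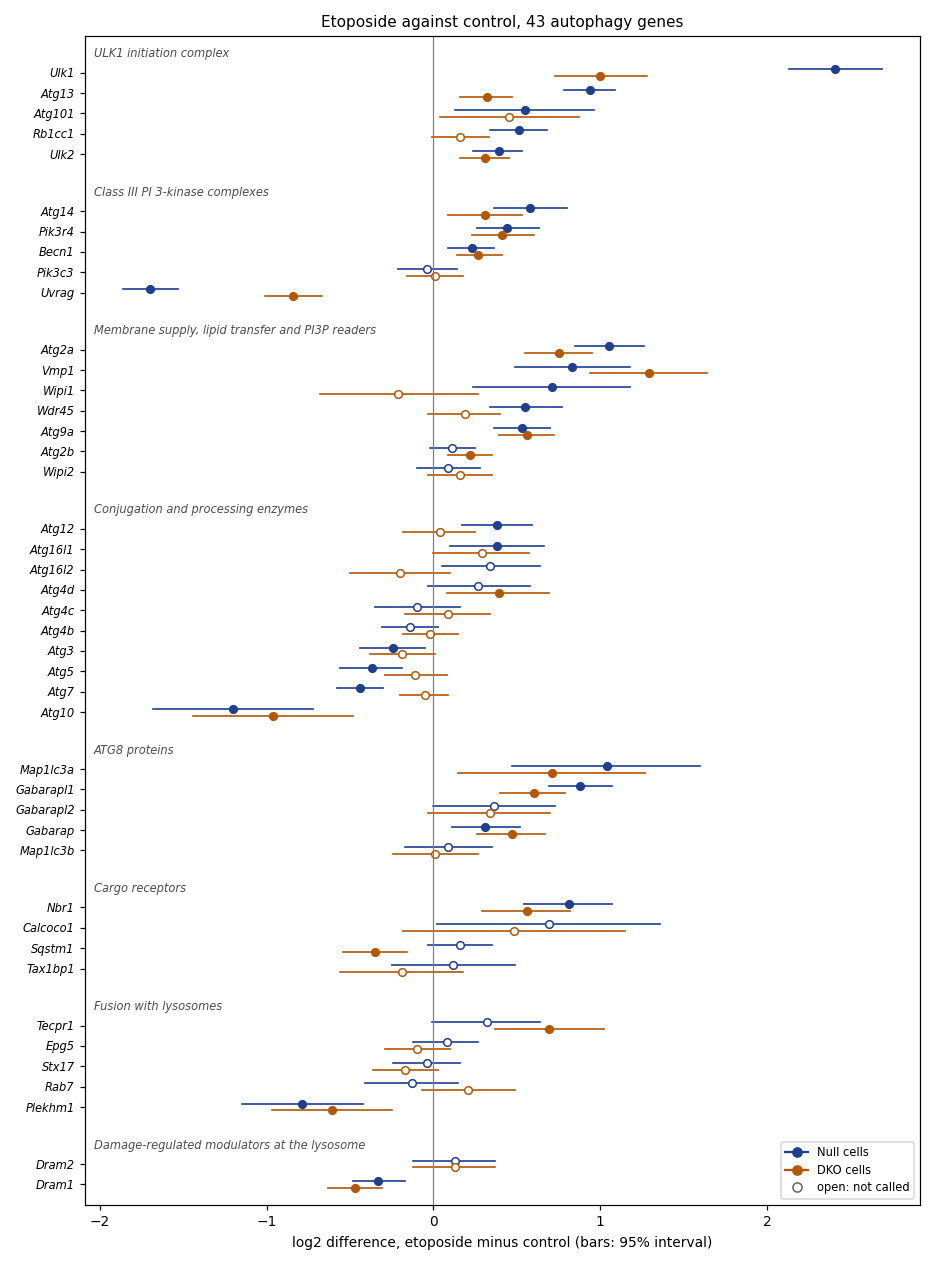
Log2 difference between etoposide and control for the 43 tested autophagy genes by role, in Null (blue) and DKO cells (orange), with 95% intervals; filled points were called at an adjusted p under 0.05. Ulk1 stands farthest to the right in Null cells at 2.41, against 1.00 in DKO cells, and Uvrag farthest to the left at -1.70, against -0.84.

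Whether the response itself depended on genotype was tested by the interaction, that is, by subtracting the Null response from the DKO response. Of the 43 members 2 had a higher and 3 a lower response in DKO cells, and 38 did not pass the test. Over all genes 3.07% were called higher and 6.39% lower, and the members' shares of 4.65% and 6.98% were near these. The 5 genes were Uvrag and Atg7, with positive differences, and Ulk1, Atg13 and Sqstm1, with negative ones.

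Ulk1 (ENSMUSG00000029512.11, GRCm38 chromosome 5, 110784488 to 110810097, minus strand) encodes the kinase that starts autophagosome formation. In Null cells it was at 21.2, 16.7 and 14.8 CPM in the control libraries and at 92.9, 92.1 and 93.0 CPM after etoposide. The DKO values were 17.2, 21.7 and 20.3 CPM in control and 42.6, 35.6 and 40.5 CPM in treated libraries. Control libraries of the genotypes overlapped, whereas every treated DKO library lay between the controls and the treated Null libraries. Ulk1 thus rose 5.32-fold in Null cells (log2 difference 2.41, SE 0.128, limma-trend with Benjamini-Hochberg adjusted p = 3.46e-08). In DKO cells it rose 2.01-fold (1.00, SE 0.128, limma-trend adjusted p = 4.88e-05). The responses differed by -1.41 on the log2 scale (SE 0.181, limma-trend adjusted p = 2.64e-04), and after etoposide Ulk1 was 2.35-fold lower in DKO than in Null cells.

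Atg13 (ENSMUSG00000027244.14, chromosome 2, 91674618 to 91710576, minus strand) encodes the adaptor through which the ULK1 complex assembles. Its values in Null cells were 20.4, 20.7 and 20.2 CPM in control and 39.5, 39.0 and 38.9 CPM after etoposide. DKO libraries held 23.7, 21.8 and 20.4 CPM before and 26.5, 27.2 and 28.1 CPM after treatment. Treated and control libraries did not overlap within either genotype, and the 3 treated Null libraries were the highest of all. The rise was 1.91-fold in Null cells (log2 0.94, SE 0.0716, limma-trend adjusted p = 7.08e-07) and 1.25-fold in DKO cells (0.32, limma-trend adjusted p = 0.00368). The difference between responses was -0.62 (SE 0.101, limma-trend adjusted p = 0.00170).

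The other three genes of the complex had smaller differences. Ulk2, a paralogue of Ulk1, rose by 0.39 on the log2 scale in Null and 0.31 in DKO cells. Rb1cc1, the scaffold FIP200, rose by 0.51 in Null cells and gave 0.16 in DKO cells, where it did not pass. Atg101, which stabilises ATG13, rose by 0.55 in Null cells and gave 0.45 in DKO cells without passing. The Null call of Atg101 (limma-trend adjusted p = 0.0390) was lost on leaving out any 1 of 6 libraries, namely Null control replicate 1 or 2, any Null etoposide library or DKO etoposide replicate 1. None of the 3 was called in the interaction.

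Uvrag (ENSMUSG00000035354.9, chromosome 7, 98885021 to 99141141, minus strand) encodes the subunit that takes the place of ATG14 in a PI 3-kinase complex of endosomes. It had 99.5, 107 and 113 CPM in Null control and 31.8, 34.7 and 31.7 CPM in Null etoposide libraries. The DKO levels were 86.9, 79.0 and 76.5 CPM and fell to 43.8, 47.6 and 43.9 CPM. No group overlapped another, and the order of the genotypes turned over with treatment. The fall was 3.24-fold in Null cells (log2 -1.70, SE 0.0771, limma-trend adjusted p = 9.24e-09) and 1.79-fold in DKO cells (-0.84, limma-trend adjusted p = 2.89e-06). The responses differed by 0.86 (SE 0.109, limma-trend adjusted p = 2.46e-04). In control cells Uvrag was 1.32-fold lower in DKO than in Null cells, and after etoposide 1.38-fold higher. An antisense neighbour, Gm45187, could at its own read density supply 6.24% of the Uvrag counts.

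Its counterpart Atg14, which directs the kinase to the forming autophagosome, moved the other way. It rose by 0.58 in Null cells and by 0.31 in DKO cells on the log2 scale, the DKO call being lost on leaving out any 1 of 4 libraries. Becn1, the shared scaffold Beclin 1, rose by 0.23 and 0.27, and Pik3r4, the regulatory subunit VPS15, by 0.44 and 0.41. The opposite-strand gene Cntd1 could supply 46.1% of the Becn1 counts. Pik3c3, the catalytic subunit VPS34, gave -0.04 in Null and 0.01 in DKO cells and passed neither test.

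**Figure D2:**
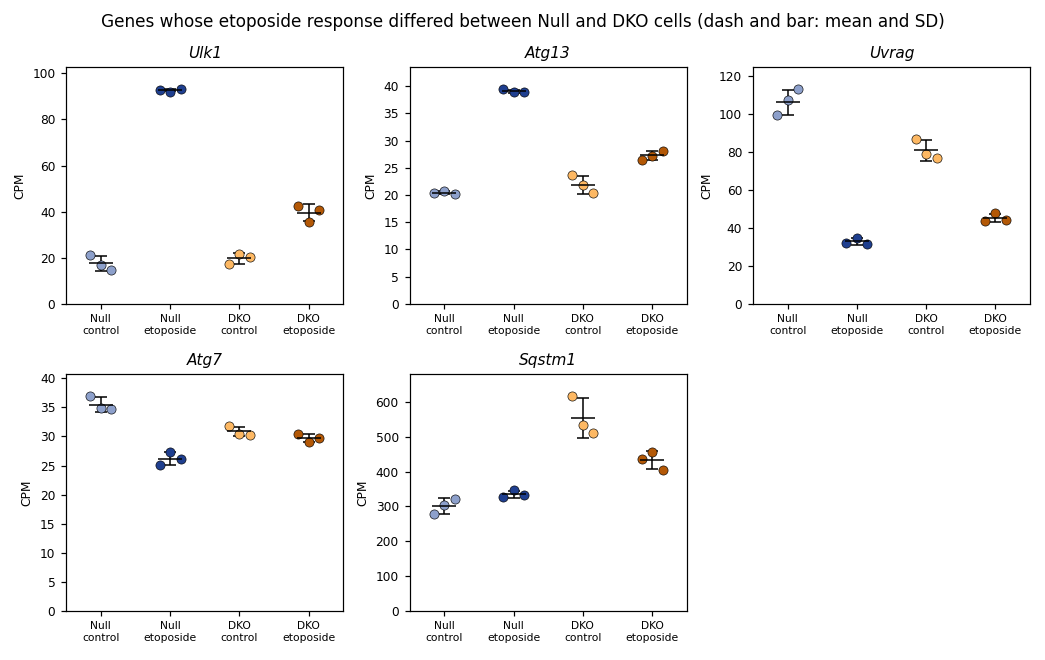
CPM of the 5 genes with a called interaction in each library (points) of the 4 groups, with the mean (dash) and SD (bar) of the 3 libraries. Ulk1 and Atg13 are highest in treated Null libraries, Uvrag is lowest there, and Sqstm1 is highest in DKO control libraries (510 to 618 CPM).

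Among the genes of membrane supply, Atg2a encodes a protein that transfers lipid into the growing membrane. It was at 55.8, 47.7 and 42.3 CPM in Null control and 96.6, 105 and 99.6 CPM in Null etoposide libraries. DKO cells held 56.8, 62.0 and 62.4 CPM before and 105, 98.4 and 101 CPM after etoposide. Treated libraries of the genotypes overlapped and were all above the controls. Atg2a rose 2.08-fold in Null cells (log2 1.05, SE 0.0927, limma-trend adjusted p = 2.31e-06) and 1.68-fold in DKO cells (0.75, limma-trend adjusted p = 3.88e-05). Its paralogue Atg2b gave 0.11 in Null cells, without passing, and rose by 0.22 in DKO cells, a call lost without DKO etoposide replicate 2.

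Vmp1, a lipid scramblase of the endoplasmic reticulum, was at 43.1, 59.1 and 68.3 CPM in Null control and 101, 95.4 and 102 CPM in Null etoposide libraries. In DKO libraries it was at 82.5, 63.9 and 60.3 CPM and then at 158, 191 and 155 CPM. The treated DKO libraries were the highest of the 12 and did not overlap the treated Null libraries. The rise was 1.78-fold in Null cells (log2 0.83, SE 0.160, limma-trend adjusted p = 0.00119) and 2.45-fold in DKO cells (1.29, limma-trend adjusted p = 3.87e-05). The responses differed by 0.46, which did not pass (SE 0.226, limma-trend adjusted p = 0.282). Without Null control replicate 1 the difference was 0.64 and passed (limma-trend adjusted p = 0.0462). After etoposide Vmp1 was 1.68-fold higher in DKO than in Null cells (limma-trend adjusted p = 0.00306).

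Wipi1 encodes a PI3P-binding protein of the early autophagosome and was at a low level. It had 1.56, 0.888 and 1.11 CPM in Null control and 2.04, 2.03 and 1.74 CPM in Null etoposide libraries. The DKO levels were 1.01, 1.08 and 0.793 CPM in control and 0.927, 0.857 and 0.691 CPM in treated libraries. Treated Null libraries were above all others, while the treated and control DKO libraries overlapped. Wipi1 rose 1.64-fold in Null cells (log2 0.71, SE 0.216, limma-trend adjusted p = 0.0204), a call lost on leaving out Null control replicate 2 or 3 or Null etoposide replicate 1 or 2 (adjusted p 0.0525 to 0.0903). In DKO cells the difference was -0.21 (limma-trend adjusted p = 0.497). The interaction of -0.92 did not pass (SE 0.306, limma-trend adjusted p = 0.0915), but after etoposide Wipi1 was 2.26-fold lower in DKO than in Null cells (limma-trend adjusted p = 0.00106). The interaction passed with DESeq2 (-0.97, adjusted p = 0.0432) and without Null control replicate 1 (-1.12, limma-trend adjusted p = 0.0268).

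Atg9a encodes the scramblase of the vesicles that seed the membrane. It was at 51.1, 44.8 and 45.2 CPM in Null control and 64.8, 71.6 and 67.0 CPM in Null etoposide libraries, and at 46.5, 47.2 and 44.0 CPM and 72, 66.4 and 64.2 CPM in the DKO libraries. Treated libraries lay above controls and the genotypes overlapped. The rise was 1.44-fold in Null cells (log2 0.53, SE 0.0766, limma-trend adjusted p = 1.49e-04) and 1.47-fold in DKO cells (0.56, limma-trend adjusted p = 9.52e-05). The interval of the difference between responses was -0.21 to 0.26. A same-strand transcript, Gm29253, could supply 30.8% of the Atg9a counts.

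The remaining PI3P readers were Wipi2 and Wdr45. Wipi2, which recruits the conjugation machinery, gave 0.09 in Null and 0.16 in DKO cells and passed neither test. Wdr45 rose by 0.55 in Null cells and gave 0.19 in DKO cells. The overlapping gene Gm45208 could supply 116% of the Wdr45 counts, so the level of Wdr45 itself is uncertain.

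**Figure D3:**
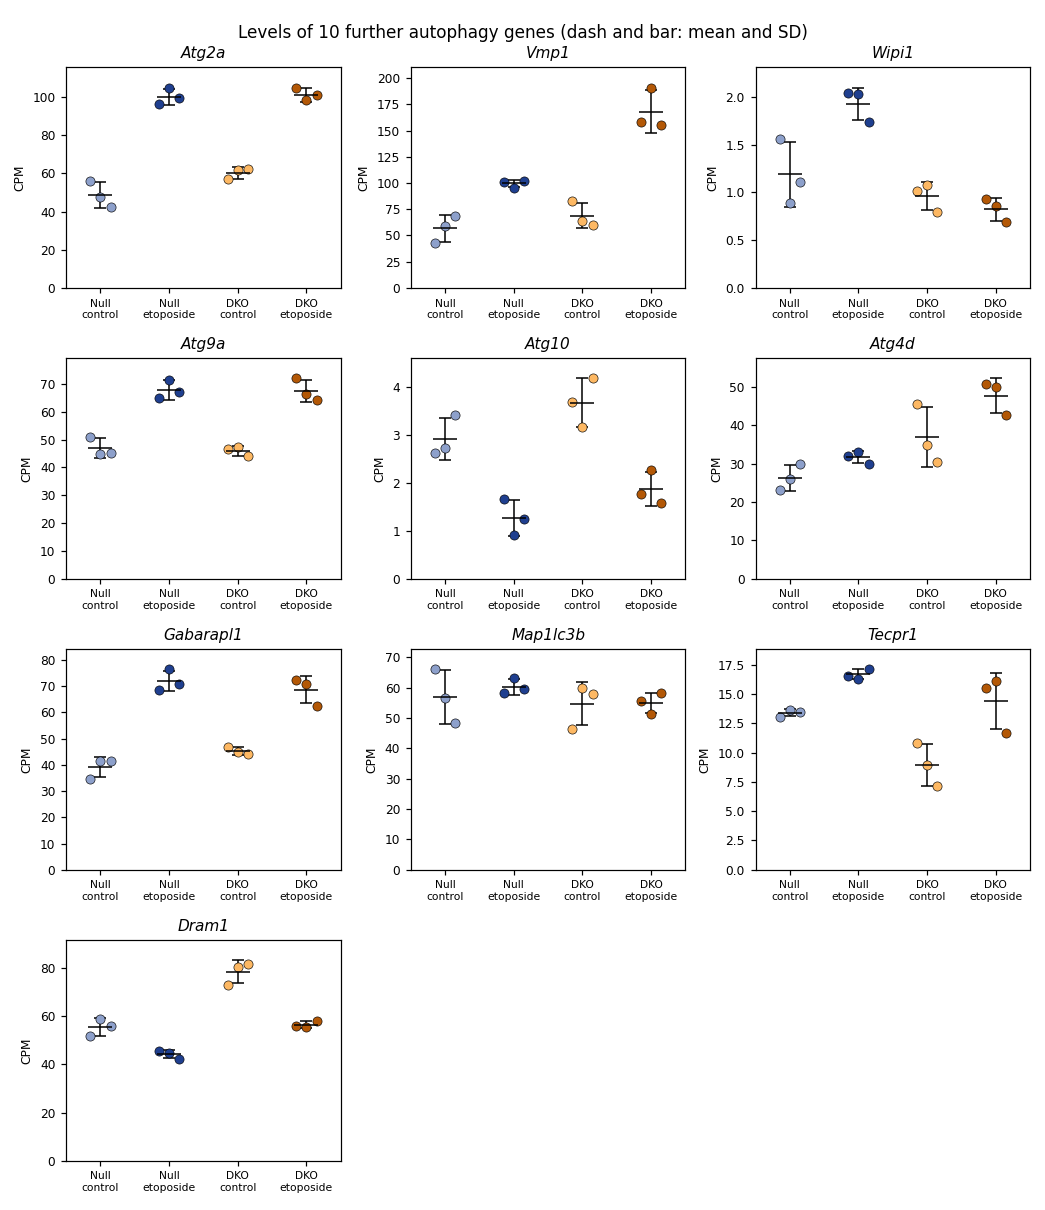
CPM of 10 further autophagy genes in each library (points) of the 4 groups, with the mean (dash) and SD (bar) of the 3 libraries. Atg2a, Atg9a and Gabarapl1 are higher in treated libraries of both genotypes, Wipi1 is highest in treated Null libraries, and Dram1 is higher in DKO than in Null libraries of the same treatment.

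Of the 7 members that fell in Null cells, 4 were conjugation enzymes, among them Atg3, whose call depended on single libraries. Atg7 (ENSMUSG00000030314.16, chromosome 6, 114643097 to 114860614, plus strand) encodes the E1-like enzyme shared by both conjugation pathways. Its levels were 37.0, 34.9 and 34.7 CPM in Null control and 25.1, 27.3 and 26.1 CPM in Null etoposide libraries. In DKO libraries they were 31.8, 30.5 and 30.3 CPM and then 30.4, 29.0 and 29.7 CPM. Null control and treated libraries were far apart, whereas those of DKO cells overlapped. Atg7 fell 1.36-fold in Null cells (log2 -0.44, SE 0.0661, limma-trend adjusted p = 1.98e-04) and gave -0.05 in DKO cells (limma-trend adjusted p = 0.559). The responses differed by 0.39 (SE 0.0935, limma-trend adjusted p = 0.0205). That call was lost on leaving out any 1 of 4 libraries, DKO control replicate 2, Null etoposide replicates 1 or 3, or the first DKO etoposide replicate (adjusted p 0.0506 to 0.0657).

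Atg10, the E2-like enzyme that transfers ATG12, was low. It had 2.63, 2.73 and 3.42 CPM in Null control and 1.67, 0.909 and 1.24 CPM in Null etoposide libraries. DKO libraries held 3.68, 3.16 and 4.18 CPM and 1.76, 2.27 and 1.58 CPM. Treated libraries were below the controls in both genotypes. Atg10 fell 2.29-fold in Null cells (log2 -1.20, SE 0.220, limma-trend adjusted p = 8.75e-04) and 1.94-fold in DKO cells (-0.96, limma-trend adjusted p = 0.00401).

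Atg5, the partner to which ATG12 is joined, fell by 0.37 in Null cells and gave -0.11 in DKO cells. Atg3, the E2-like enzyme for ATG8 proteins, fell by 0.24 in Null cells and gave -0.19 in DKO cells. The Null call of Atg3 (limma-trend adjusted p = 0.0476) was lost in 8 of the 12 fits that each left out 1 library. Atg12 and Atg16l1, which with ATG5 form the complex that directs lipidation, rose by 0.38 each in Null cells and gave 0.04 and 0.29 in DKO cells. The call of Atg16l1 was lost on leaving out any 1 of 5 libraries. Atg16l2, a paralogue, passed in neither genotype (0.34 and -0.20).

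The ATG4 proteases prepare and recycle ATG8 proteins. Atg4d was at 23.0, 26.1 and 29.8 CPM in Null control and 32.0, 32.9 and 29.9 CPM in Null etoposide libraries. DKO levels were 45.4, 34.9 and 30.4 CPM in control and 50.7, 49.8 and 42.6 CPM in treated libraries. DKO libraries lay above the Null libraries of the same treatment. The difference was 1.39-fold in control cells (log2 0.48, SE 0.140, limma-trend adjusted p = 0.0308) and 1.50-fold after etoposide (0.59, limma-trend adjusted p = 0.00600). The control call was lost on leaving out any 1 of 4 libraries (limma-trend adjusted p 0.0548 to 0.0965). It was also lost in a fit of only these 2 groups (limma-trend adjusted p = 0.142). With etoposide Atg4d rose 1.31-fold in DKO cells (0.39, limma-trend adjusted p = 0.0454), a call lost on leaving out any 1 of 8 libraries. The opposite-strand gene Kri1 could supply 61.5% of the Atg4d counts, and 94.1% if only exons of protein-coding transcripts are considered. Atg4b and Atg4c were called in neither response.

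Promoter sequences were examined because TFEB and TFE3 bind CACGTG. In the RefSeq promoters (GRCm38.p6, 250 bases before to 50 after the start) 37 of the 44 members had an entry. CACGTG, which reads the same on both strands, was found in 4 of them, or 10.8%, against 8.09% of 27025 genes. The longer TCACGTGA, which contains it, was in 1 member, Atg3 (2.7%), against 1.12% of genes. Ulk1, Atg13, Uvrag and Sqstm1 held neither within this window. Of the 4 genes with the element, Atg7, Atg5 and Atg3 fell and Atg14 rose in Null cells. The 30 bases around each match are given 5′ to 3′ on the strand of the gene, with the element in capitals. They lie at chr6:114670952-114670981 (plus strand) for Atg7, chr10:44268313-44268342 (plus) for Atg5, chr14:47568418-47568447 (minus) for Atg14, and chr16:45158723-45158752 and chr16:45158746-45158775 (both plus) for Atg3. The element began at -132, -14, -1, -94 and -71 from the RefSeq start. For Atg7 that start was 27999 bases inside the GENCODE gene, and for Atg14 2215 bases inside it.
Atg7: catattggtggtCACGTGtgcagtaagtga
Atg5: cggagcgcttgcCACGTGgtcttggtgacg
Atg14: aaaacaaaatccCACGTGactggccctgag
Atg3, upstream match: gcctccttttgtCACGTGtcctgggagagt
Atg3, downstream match: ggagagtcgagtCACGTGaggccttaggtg

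The ATG8 genes encode the ubiquitin-like proteins that mark the autophagosome membrane. Per length, Gabarap held 65.3% ± 1.51 of the summed ATG8 level (CPM per kb) in Null control cells, and Gabarapl1 21.0% ± 0.406, Map1lc3b 8.27% ± 2.02, Gabarapl2 4.58% ± 0.626 and Map1lc3a 0.917% ± 0.319 (SD, n = 3). After etoposide the share of Gabarapl1 was 28.4% ± 0.736 in Null and 25.2% ± 1.02 in DKO cells, against 23.0% ± 0.890 in DKO control cells. In all 4 groups the level of the GABARAP subfamily exceeded that of the LC3 subfamily. With the length of the longest transcript in place of merged exons, Map1lc3b had 11.1% and Gabarapl1 17.2% in Null control cells.

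**Figure D4:**
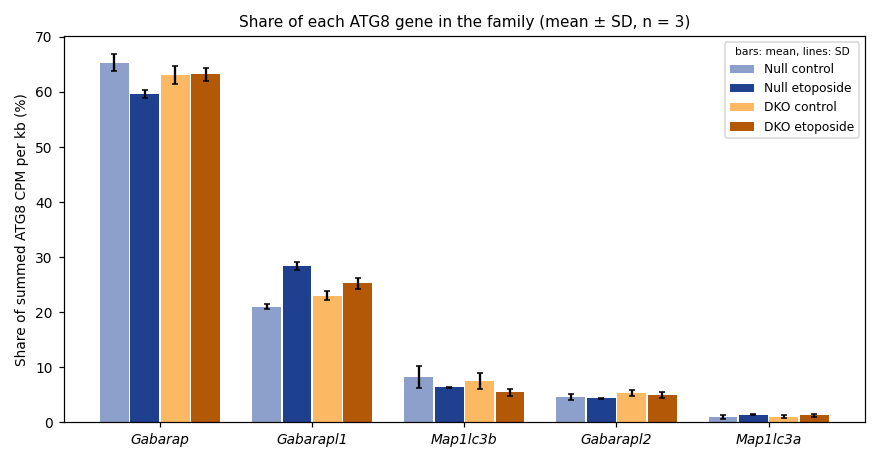
Share of each ATG8 gene in the summed CPM per kb of the family by group (bars, mean of 3 libraries; lines, SD). Gabarap takes 59.6% to 65.3% in each group, and Gabarapl1 goes from 21.0% to 28.4% in Null and from 23.0% to 25.2% in DKO cells.

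Gabarapl1 was at 34.7, 41.6 and 41.4 CPM in Null control and 68.7, 76.4 and 70.9 CPM in Null etoposide libraries. It was at 46.9, 44.8 and 44.0 CPM in DKO control and 72.3, 70.7 and 62.6 CPM in DKO etoposide libraries. All treated libraries exceeded all controls. The rise was 1.84-fold in Null cells (log2 0.88, SE 0.0881, limma-trend adjusted p = 7.05e-06) and 1.51-fold in DKO cells (0.60, limma-trend adjusted p = 1.66e-04).

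Map1lc3b, the gene of the widely used marker LC3B, was at 66.0, 56.6 and 48.2 CPM in Null control and 58.1, 63.2 and 59.6 CPM in Null etoposide libraries. DKO libraries held 46.5, 59.8 and 57.8 CPM in control and 55.5, 51.4 and 58.1 CPM after etoposide. All 4 groups overlapped. The response was 0.09 in Null cells (95% interval -0.17 to 0.35, limma-trend adjusted p = 0.576) and 0.01 in DKO cells (-0.24 to 0.27, limma-trend adjusted p = 0.939). Gabarap rose by 0.31 and 0.47, and the low Map1lc3a by 1.04 and 0.71, in Null and DKO cells. The Null call of Gabarap was lost without Null control replicate 1 or Null etoposide replicate 1 or 2. The DKO call of Map1lc3a (limma-trend adjusted p = 0.0460) was lost on leaving out any 1 of 9 libraries. Gabarapl2 gave 0.36 and 0.34 and passed neither test.

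Cargo receptors link ubiquitinated or damaged material to ATG8 proteins. Sqstm1 (ENSMUSG00000015837.15, chromosome 11, 50199366 to 50210827, minus strand) was at 277, 305 and 321 CPM in Null control and 326, 347 and 332 CPM in Null etoposide libraries. In DKO cells it was at 618, 534 and 510 CPM in control and 436, 457 and 406 CPM in treated libraries. Every DKO library was above every Null library, and within DKO cells the treated libraries were below the controls. Sqstm1 was 1.84-fold higher in DKO than in Null control cells (log2 0.88, SE 0.0877, limma-trend adjusted p = 1.17e-05) and 1.29-fold higher after etoposide (0.37, limma-trend adjusted p = 0.00602).

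Etoposide lowered Sqstm1 1.28-fold in DKO cells (log2 -0.35, SE 0.0877, limma-trend adjusted p = 0.00670). In Null cells the difference was 0.16 (limma-trend adjusted p = 0.181). The responses differed by -0.51 (SE 0.124, limma-trend adjusted p = 0.0212). This call was lost on leaving out any 1 of 4 libraries, replicates 2 or 3 of Null etoposide or replicates 1 or 3 of DKO etoposide (adjusted p 0.0514 to 0.0635).

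Nbr1, a receptor that works with p62, rose by 0.81 in Null and 0.56 in DKO cells. Tax1bp1 and Calcoco1 passed in neither. Calcoco1, a receptor for the endoplasmic reticulum and Golgi, spread widely in control cells, from 12.3 to 22.6 CPM in Null and from 18.2 to 46.7 CPM in DKO libraries.

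Fusion with the lysosome requires the GTPase RAB7, the SNARE syntaxin 17 and several tethers. Plekhm1, an adaptor that joins RAB7 to the HOPS tether, fell by 0.79 in Null and by 0.61 in DKO cells, where the call was lost without DKO control replicate 2 or DKO etoposide replicate 2. Stx17, Epg5 and Rab7 passed in neither response. Tecpr1, a tether that binds the ATG12 and ATG5 conjugate, was at 13.0, 13.6 and 13.5 CPM in Null control and 16.5, 16.3 and 17.1 CPM in Null etoposide libraries. It was at 10.8, 8.96 and 7.11 CPM in DKO control and 15.5, 16.1 and 11.7 CPM in DKO etoposide libraries. DKO control libraries were below all others.

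Tecpr1 was 1.51-fold lower in DKO than in Null control cells (log2 -0.60, SE 0.148, limma-trend adjusted p = 0.0124), a call lost in a fit of only these 2 groups (limma-trend adjusted p = 0.0549). It rose 1.62-fold with etoposide in DKO cells (0.69, limma-trend adjusted p = 0.00248) and gave 0.32 in Null cells (limma-trend adjusted p = 0.112), where the fit of the 2 groups passed (0.30, limma-trend adjusted p = 0.0163). The interaction of 0.38 did not pass (limma-trend adjusted p = 0.351).

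Dram1 encodes a lysosomal membrane protein described as a p53 target that promotes autophagy, and Dram2 a relative. Dram1 was at 51.7, 58.8 and 55.9 CPM in Null control and 45.7, 44.5 and 42.4 CPM in Null etoposide libraries. DKO libraries held 73.0, 80.6 and 81.7 CPM and 55.9, 55.4 and 58.0 CPM. Treated libraries were below the controls of their genotype, and DKO libraries above the Null libraries of the same treatment. Dram1 fell 1.25-fold in Null cells (log2 -0.33, SE 0.0723, limma-trend adjusted p = 0.00322) and 1.39-fold in DKO cells (-0.47, limma-trend adjusted p = 2.24e-04). It was 1.41-fold higher in DKO than in Null control cells (0.50, limma-trend adjusted p = 2.71e-04). Dram2 gave 0.13 in both genotypes and passed in neither.

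The genotypes were then compared within each treatment. In control cells 4 members were higher and 3 lower in DKO than in Null cells, and 36 did not pass, while 10.9% of all genes were called higher and 8.39% lower. The shares of the members, 9.30% and 6.98%, were near those of all genes. Sqstm1, Dram1, Atg4d and Atg2a were higher, and Tecpr1, Uvrag and Atg2b lower. The calls of Atg2a and Atg4d depended on single libraries. Atg2a (0.32) was lost without Null control replicate 2 or 3, DKO control replicate 2 or 3 or DKO etoposide replicate 2. Atg4d was lost without replicate 1 or 2 of either control group. With library sizes not scaled by TMM the members' shares were 4.65% higher and 11.6% lower, and those of all genes turned the same way, to 8.74% and 11.4%.

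After etoposide 10 members were higher and 8 lower in DKO cells, and 25 did not pass. Of all genes 15.9% were called higher and 17.8% lower, and the members' shares were 23.3% and 18.6%. The larger share of higher members did not hold throughout. With library sizes not scaled by TMM, 14.0% of the members and 14.0% of all genes were higher, and 23.3% and 19.2% were lower, which turned the balance of the members to 6 higher and 10 lower. Without DKO etoposide replicate 3 the higher calls took 11.6% of the members and 12.7% of all genes. Other settings kept the larger share. DESeq2 called 25.6% of the members higher, against 18.1% of all genes. A fit of only these 2 groups called 34.9% of the members higher and 27.9% lower, against 22.9% each of all genes. The median log2 difference was -0.01 for the members as for all genes. Leaving out 1 library at a time gave 5 to 12 higher and 5 to 9 lower. Higher in DKO cells were Vmp1 (0.75), Atg4d (0.59), Uvrag (0.46), Rab7 (0.46), Sqstm1 (0.37), Dram1 (0.35), Atg4c (0.33), Atg5 (0.27), Becn1 (0.19) and Atg7 (0.18). Lower were Ulk1 (-1.23), Wipi1 (-1.18), Atg13 (-0.52), Atg12 (-0.48), Atg14 (-0.39), Epg5 (-0.30), Rb1cc1 (-0.26) and Atg2b (-0.18). Several of these calls depended on single libraries. Atg7 was lost on leaving out any 1 of 10, Atg4c of 7, Becn1 of 6, Atg5, Rb1cc1 and Atg2b of 5 each, and Rab7 and Epg5 of 3 each.

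By role, 3 of 5 genes of the ULK1 complex were lower and none was higher in treated DKO cells, Rb1cc1 being among the calls just named. Of the 10 conjugation and processing enzymes 4 were higher and 1 lower, and 3 of the 4 (Atg4c, Atg5 and Atg7) were lost on leaving out single libraries. No ATG8 gene was called in either comparison of genotypes.

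**Figure D5:**
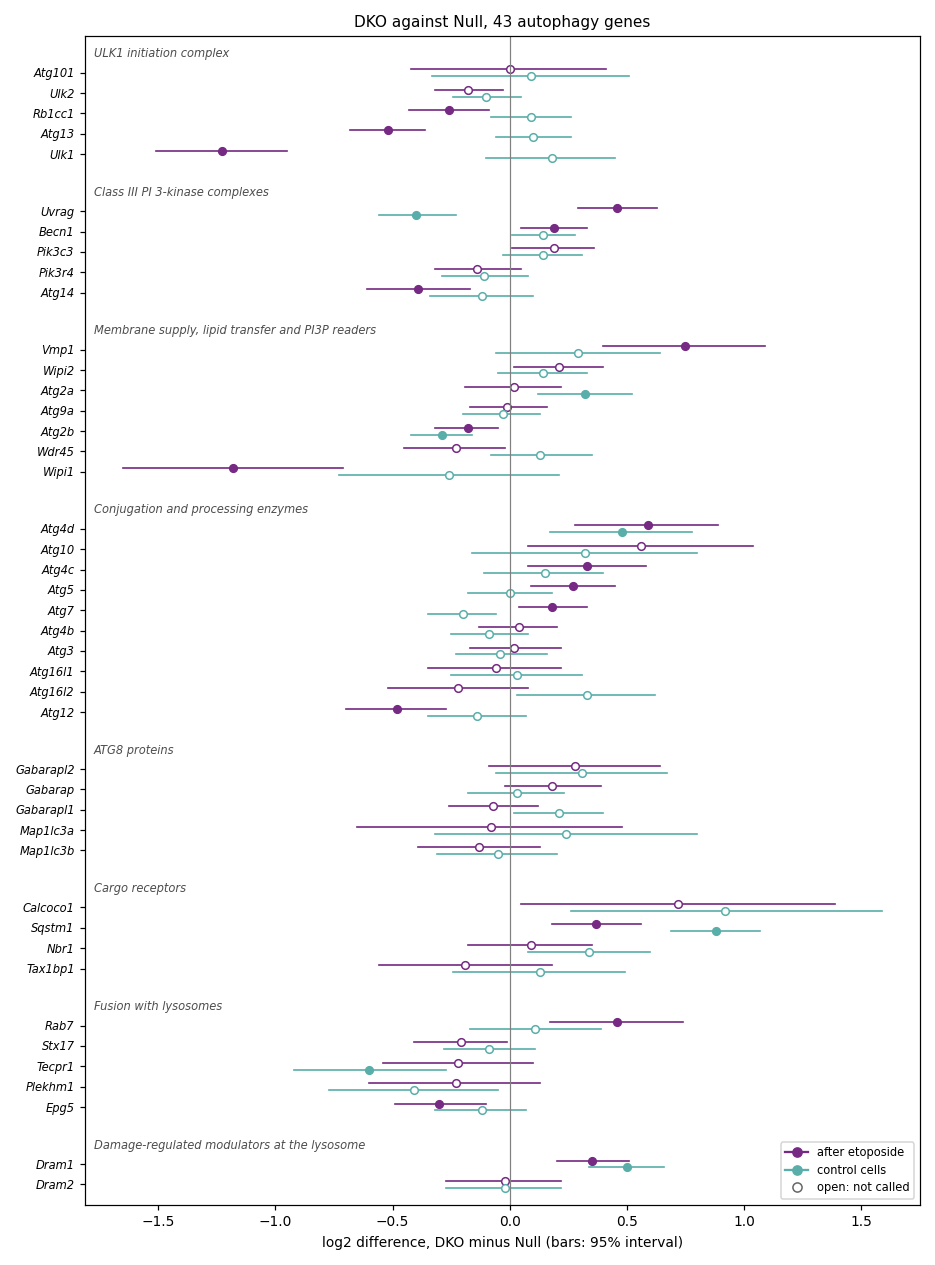
Log2 difference between DKO and Null cells for the 43 tested autophagy genes by role, after etoposide (purple) and in control cells (teal), with 95% intervals; filled points were called at an adjusted p under 0.05. Ulk1 (-1.23) and Wipi1 (-1.18) lie farthest to the left after etoposide, and Sqstm1 was called at 0.88 in control cells.

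A list of 35 further autophagy genes, such as regulators of the PI 3-kinase complex, HOPS subunits and organelle receptors, was examined beside the members, and 34 were tested. In Null cells 10 rose and 5 fell with etoposide, or 29.4% and 14.7% against 20.9% and 18.7% of all genes. In DKO cells 15 rose and 4 fell, or 44.1% and 11.8% against 20.2% and 19.1%. The largest of the called differences was that of Trp53inp1, a p53 target whose protein binds ATG8 proteins. It went from 3.46 to 4.12 CPM in Null control to 318 to 364 CPM in Null etoposide libraries, and from 3.68 to 4.38 CPM to 126 to 133 CPM in DKO libraries. It rose by 6.51 in Null and 4.98 in DKO cells, and the interaction of -1.53 passed (SE 0.131, limma-trend adjusted p = 7.82e-06). Pink1, the kinase that marks damaged mitochondria, rose by 1.03 and 0.66. Wdfy3, a scaffold for aggregates, fell by 0.94 in Null and by 0.59 in DKO cells. Rab7b, a relative of Rab7, rose by 0.91 in DKO cells and gave 0.30 in Null cells without passing, and the interaction of neither gene passed (limma-trend adjusted p = 0.182 for Wdfy3 and 0.248 for Rab7b).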

How the data were processed

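The deposited table holds raw counts per gene, which the authors made from ribosomal RNA-depleted, paired-end libraries aligned with HISAT2 (mm10 per the submitters' processing notes). The study's methods name HTSeq for the counting and the notes name featureCounts; versions and the strand setting are not given in the sources used here. Counts on either strand of an abundant gene were examined: genes within its exons held a median of 0.981 times its read density on the opposite strand (106 genes) and 0.558 times on the same strand (241 genes), so overlapping genes may share reads.

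Identifiers were matched without their version to GENCODE M21 (GRCm38), and 99.4% had a symbol. Genes were kept with filterByExpr of edgeR 4.0.16 (18066 of 32688, 99.96% of counts). TMM factors were 0.939 to 1.03, and log2 CPM used a prior count of 3, so folds of low genes are understated. All 12 libraries entered 1 robust limma-trend fit (limma 3.58.1, R 4.3.3) with a mean per group, and two-sided p-values were adjusted by Benjamini-Hochberg over the genes tested. The 5 comparisons share groups. Levels are CPM, and CPM per kb of merged exons where genes are compared. Scripts were tested on simulated data.

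The members and lists were chosen with earlier results of these data known. Described in full were the members called in the interaction, the 4 largest called differences of each other comparison, and 8 genes listed by name (Sqstm1, Map1lc3b, Gabarapl1, Ulk1, Atg9a, Uvrag, Dram1 and Wipi1). Alternatives were edgeR quasi-likelihood, DESeq2 1.42.0, other scalings, filters and prior counts, a fold threshold, 2-group fits, a replicate block and leaving out each library. No protein table was used here.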

Additional observations from a re-analysis of the deposited data

Results flagged for a closer look

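The etoposide response of 5 autophagy genes differed between Null and DKO cells by the test of the difference itself (limma-trend interaction with Benjamini-Hochberg adjustment over all genes). These were 4.65% of the members called higher and 6.98% called lower, near the 3.07% and 6.39% of all genes, so the count is no result about autophagy genes as a group. The difference in response, DKO minus Null on the log2 scale, was -1.41 for Ulk1, which rose in both genotypes and less in DKO cells. It was -0.62 for Atg13, which did likewise. It was 0.86 for Uvrag, which fell in both genotypes and less in DKO cells. For Atg7, which fell in Null cells, it was 0.39. For Sqstm1, which fell in DKO cells, it was -0.51. The calls of Atg7 and Sqstm1 were each lost on leaving out any 1 of 4 libraries. Atg7 was lost without DKO control replicate 2, replicate 1 or 3 of Null etoposide or DKO etoposide replicate 1, and Sqstm1 without replicate 2 or 3 of Null etoposide or replicate 1 or 3 of DKO etoposide.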

How the results depend on the processing

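None of the 22 alternatives run for each comparison (21 for the interaction) turned the sign of a called member. The fold threshold, counted among them, kept the main estimates and so could not turn a sign. Leaving out 1 library at a time gave 15 to 21 higher and 6 to 7 lower members for the Null response (median 0.21 to 0.33, the lowest without Null control replicate 1). It gave 12 to 18 higher and 4 to 6 lower for the DKO response (median 0.10 to 0.21), 2 to 4 higher and 3 to 4 lower for genotype in control cells (median 0.03 to 0.10), 5 to 12 higher and 5 to 9 lower for genotype after etoposide (median -0.04 to 0.01), and 1 to 3 higher and 2 to 5 lower for the interaction (median -0.09 to -0.01). In control cells 2 rather than 4 were higher without Null control or DKO control replicate 2 (8.77% and 8.44% of all genes). After etoposide 6 rather than 10 were higher without any 1 Null etoposide library or DKO etoposide replicate 2, and 5 without DKO etoposide replicate 3 (14.0% and 11.6% of the members, against 12.2% to 13.8% of all genes), while 5 rather than 8 were lower without Null etoposide replicate 1 or replicate 1 or 3 of DKO etoposide (11.6% against 14.1% to 15.2%). In the interaction 1 rather than 2 was higher without DKO control replicate 2, replicate 1 or 3 of Null etoposide or DKO etoposide replicate 1 (2.33% of the members, against 1.95% to 2.47% of all genes). Without Null control replicate 1, 5 rather than 3 were lower, and Atg2a, Vmp1 and Wipi1 passed as well. There 6.98% of the members were higher and 11.6% lower, against 3.47% and 6.54% of all genes. Asking also for an absolute log2 difference of at least 1, a stricter rule by construction, left 3 higher and 2 lower (Null response), 2 and 0 (DKO response), 0 and 0 (genotype in control cells), 0 and 2 (genotype after etoposide) and 0 and 1 (interaction). Under it the members' shares of 6.98% higher and 4.65% lower in the Null response stood beside 8.29% and 4.89% of all genes, and 4.65% and 0% in the DKO response beside 6.42% and 6.70%, so the excess of rises over the background was not seen at this size of difference. For genotype the same rule left 3.79% of all genes higher and 3.76% lower in control cells, and 3.81% and 8.18% after etoposide. In the interaction it left 0.952% and 3.56% of all genes. Library size alone gave 2 higher and 5 lower in control cells (median 0.01) and 6 higher after etoposide, while over all genes 8.74% were higher and 11.4% lower in control cells (median -0.08) and 14.0% higher and 19.2% lower after etoposide, where 10 members were lower. No filter on low counts gave 6 higher after etoposide and 1 higher in the interaction, against 8.28% and 1.24% of all genes. Fits of only the 2 groups gave 2 higher and 1 lower in control cells, against 6.38% and 5.10% of all genes, and DESeq2 gave 5 lower in the interaction, against 7.62%. After etoposide the 2-group fit called 34.9% of the members higher and 27.9% lower, against 22.9% each of all genes. The causes were not tested. Replicate numbers did not pair the libraries: of 18 same-numbered pairs, 1 had deviations correlated above 0.1 (range -0.54 to 0.39). Some pairs were negatively correlated. The values were -0.54 and -0.41 between Null and DKO control replicates 1 and 3, and -0.38 between Null control and DKO etoposide replicate 3. Between DKO control and DKO etoposide replicate 2 the value was -0.25. With a replicate block, 2 members were higher in control cells, 6 after etoposide and 1 in the interaction (9.47%, 13.9% and 2.12% of all genes), where Atg7 and Sqstm1 no longer passed. Calcoco1, which spread between control libraries, had the largest SE of the members in the Null response (0.306 on the log2 scale), followed by the low genes Map1lc3a (0.258), Atg10 (0.220) and Wipi1 (0.216).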

Other observations

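Among the 34 further autophagy genes tested, genotype was called for 3 in control cells and 10 after etoposide. The shares called higher and lower were 5.88% and 2.94% in control cells, against 10.9% and 8.39% of all genes, and 20.6% and 8.82% after etoposide, against 15.9% and 17.8%. In control cells Pink1 (0.90 on the log2 scale) and the HOPS and CORVET subunit gene Vps11 (0.62) were higher in DKO than in Null cells, and Vps33a, another subunit gene of these tethers, was lower (-0.20). Vps11 was at 63.6, 69.1 and 60.9 CPM in Null control and 99.6, 104 and 92.7 CPM in DKO control libraries, without overlap (limma-trend, Benjamini-Hochberg adjusted p = 6.62e-05). After etoposide 7 genes were higher and 3 lower in DKO cells. The largest differences were those of Trp53inp1 (-1.39), of Fyco1, an adaptor for autophagosome transport along microtubules (1.01), and of Vps11 (0.68). Calcoco2, a receptor for ubiquitinated bacteria, had no count in any control library, did not exceed 0.0700 CPM after etoposide and was not tested.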
